A study of Mus musculus with 4 samples.

Results

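Broad domains of H3K27me2, dimethylation of lysine 27 of histone H3, were examined in mouse zygotes. A broad domain was a listed H3K27me2 peak of 10 kb or more, and 1005 of the 56036 peaks in the 4 deposited peak lists met this limit. The lists belonged to the maternal and the paternal genome of Ezh2m+/p+ and Ezh2m-/p+ zygotes. The Ezh2m+/p+ lists held 11 maternal domains among 5744 peaks and 281 paternal domains among 17863 peaks. The Ezh2m-/p+ lists held 18 maternal domains among 9606 peaks and 695 paternal domains among 22823 peaks. Because the domains were chosen by width, their numbers and widths describe the lists and were not tested.

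The zygotes were at the PN5 stage, had no polar bodies, and were made in vitro by adding sperm of PWK/PhJ males to oocytes of C57BL/6J females. The females of both groups carried floxed Ezh2 alleles (Ezh2 fl/fl). Gdf9-Cre was present in the mothers of the Ezh2m-/p+ group only. It is driven by an oocyte promoter and removes the floxed exon in oocytes, so that these zygotes lacked maternal EZH2. Sperm brought an intact Ezh2 allele in both groups. For each genotype there was 1 H3K27me2 library and 1 input library from pooled zygotes, so no value below has a replicate check, and differences between the genotypes describe these libraries. The genotype of each list is the one it is labelled with, and the lists hold no measure of the deletion itself.

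Methyl groups on H3K27 are added by Polycomb repressive complex 2, in which EZH2 or EZH1 is the catalytic subunit and EED and SUZ12 are core partners. The dimethylated state can be an end point or a step towards trimethylation, and in many cell types it covers far more of the genome than the trimethylated state. Both states are linked to genes that are not expressed. After fertilization the paternal genome exchanges the protamines of sperm for histones supplied by the egg, so that its histone marks are largely set anew, whereas the maternal genome keeps marks laid down in the oocyte.

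The sequences of 6 promoters inside paternal domains are shown to give the reader the DNA that the domains covered. Each runs from 250 bases before to 50 bases after a RefSeq start site of GRCm38.p6, in the direction of the gene, with CpG dinucleotides in capitals. Atp1a4 and Eya3 lay in the domain of largest fold over input, among those holding both the GENCODE start site and the whole RefSeq promoter of a protein-coding gene, of the respective paternal list, Ezh2m+/p+ for Atp1a4 and Ezh2m-/p+ for Eya3. Padi3 lay in the widest Ezh2m+/p+ domain, and the phospholipase genes Pla2g2c, Pla2g2f and Pla2g2d lay in the widest Ezh2m-/p+ domain. These last 4 were added after their values were seen. The maternal lists had no domain that met both conditions, although a RefSeq promoter of Sh3tc1, away from its GENCODE start, lay in an Ezh2m+/p+ maternal domain.
Atp1a4, chr1:172258375-172258674, minus strand: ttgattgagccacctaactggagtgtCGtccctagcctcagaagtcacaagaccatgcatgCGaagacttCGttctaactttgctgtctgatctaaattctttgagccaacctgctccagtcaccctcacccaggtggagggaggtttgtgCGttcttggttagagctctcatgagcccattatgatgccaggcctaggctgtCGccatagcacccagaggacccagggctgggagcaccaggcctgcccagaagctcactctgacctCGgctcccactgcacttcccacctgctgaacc
Eya3, chr4:132638796-132639095, plus strand: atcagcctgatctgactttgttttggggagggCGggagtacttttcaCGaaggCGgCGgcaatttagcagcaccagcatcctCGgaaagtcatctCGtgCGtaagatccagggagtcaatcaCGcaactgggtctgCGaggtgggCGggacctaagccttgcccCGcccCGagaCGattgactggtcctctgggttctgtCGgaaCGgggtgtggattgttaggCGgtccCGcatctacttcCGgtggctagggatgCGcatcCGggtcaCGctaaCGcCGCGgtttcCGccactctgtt
Padi3, chr4:140810599-140810898, minus strand: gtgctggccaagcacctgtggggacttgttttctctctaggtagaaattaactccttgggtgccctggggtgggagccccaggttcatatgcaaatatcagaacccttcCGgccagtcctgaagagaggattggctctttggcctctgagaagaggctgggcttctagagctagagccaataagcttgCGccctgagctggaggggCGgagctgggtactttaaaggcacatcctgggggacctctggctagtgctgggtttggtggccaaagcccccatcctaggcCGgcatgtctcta
Pla2g2c, chr4:138725075-138725374, plus strand: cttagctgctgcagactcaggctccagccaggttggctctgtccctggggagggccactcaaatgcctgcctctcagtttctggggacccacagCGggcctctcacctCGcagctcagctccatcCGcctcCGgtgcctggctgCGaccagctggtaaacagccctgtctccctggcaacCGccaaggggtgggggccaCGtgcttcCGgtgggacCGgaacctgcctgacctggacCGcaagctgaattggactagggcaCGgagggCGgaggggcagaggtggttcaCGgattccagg
Pla2g2f, chr4:138757549-138757848, minus strand: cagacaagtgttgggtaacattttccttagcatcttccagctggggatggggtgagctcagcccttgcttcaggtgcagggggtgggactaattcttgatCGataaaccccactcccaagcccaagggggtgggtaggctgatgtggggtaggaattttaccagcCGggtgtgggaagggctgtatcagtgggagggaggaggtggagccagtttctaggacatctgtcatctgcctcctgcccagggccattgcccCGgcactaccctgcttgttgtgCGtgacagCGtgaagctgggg
Pla2g2d, chr4:138775485-138775784, plus strand: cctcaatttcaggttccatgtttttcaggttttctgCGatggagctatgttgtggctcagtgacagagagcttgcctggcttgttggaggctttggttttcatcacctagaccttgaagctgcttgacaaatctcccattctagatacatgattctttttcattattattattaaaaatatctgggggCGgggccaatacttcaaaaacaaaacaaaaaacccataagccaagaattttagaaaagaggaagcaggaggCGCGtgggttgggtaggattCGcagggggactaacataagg

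The number of CpG dinucleotides in these 300 bases was 6 for Atp1a4, 25 for Eya3, 4 for Padi3, 13 for Pla2g2c, 5 for Pla2g2f and 5 for Pla2g2d. The median was 14 over 20061 promoters of protein-coding genes (quartiles 4 and 25). It was also 14 over the 81 such promoters inside Ezh2m+/p+ paternal domains (quartiles 5 and 24) and over the 216 inside Ezh2m-/p+ paternal domains (quartiles 5 and 24). The promoters inside paternal domains thus spanned CpG-poor and CpG-rich sequences in about the proportions of all promoters, and only Eya3 of the 6 shown was above the median.

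Domains made up little of the maternal lists and much more of the paternal lists. They held 151.2 kb, or 0.835%, of the listed peak sequence in Ezh2m+/p+ maternal chromatin and 220.4 kb (0.917%) in Ezh2m-/p+ maternal chromatin. In the paternal lists they held 4066 kb (9.50%) for Ezh2m+/p+ and 11722 kb (17.6%) for Ezh2m-/p+ zygotes. The paternal list was 3.11 times as long as the maternal list in Ezh2m+/p+ zygotes and held 25.5 times as many domains, and these ratios were 2.38 and 38.6 in Ezh2m-/p+ zygotes. The Ezh2m-/p+ paternal list had 1.28 times the peaks and 2.47 times the domains of the Ezh2m+/p+ paternal list. This last ratio was 3.38 at a limit of 15 kb, 2.25 for folds over 10, and 1.72 where neighbouring peaks of a list were joined across gaps of up to 2 kb before the limit was applied. Under the same 3 alternatives the paternal list held 17.8, 113.5 and 22.5 times the domains of the maternal list for Ezh2m+/p+. For Ezh2m-/p+ the factors were 100.3, 102 and 21.7, and the maternal lists then held between 2 and 57 domains. The order of the genotypes in the ratio of paternal to maternal domains thus turned under the last 2 alternatives.

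Reads could be assigned to a parent only where they covered a variant between the strains, and the lists rest on unequal coverage. Reads of the maternal genome covered a median of 25.0% of a chromosome in Ezh2m+/p+ zygotes (range over 20 chromosomes 13.1% to 33.3%) and 35.5% in Ezh2m-/p+ zygotes (20.8% to 45.1%). Reads of the paternal genome covered a median of 2.18% (1.10% to 4.03%) and 3.17% (1.61% to 5.47%). Coverage was therefore lower in the paternal genome, which had more domains, and within each parental genome it was higher in the Ezh2m-/p+ zygotes. The whole-library read totals in the study's methods stand in the other order, lower for Ezh2m-/p+. The part of coverage in the numbers and widths of domains was not tested.

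Median widths were close to the limit in every list. They were 12.8 kb (quartiles 10.2 and 16.4 kb) and 11.5 kb (10.7 and 12.9 kb) in the Ezh2m+/p+ and Ezh2m-/p+ maternal lists, and 13 kb (11 and 16.2 kb) and 13.8 kb (11.2 and 18.4 kb) in the paternal lists. The upper ends differed more. The widest domain was 20.8 kb in the Ezh2m+/p+ maternal, 17.6 kb in the Ezh2m-/p+ maternal, 52.4 kb in the Ezh2m+/p+ paternal and 102 kb in the Ezh2m-/p+ paternal list. Widths of 20 kb or more were found for 1, 0, 34 and 154 domains in that order, and widths of 50 kb or more for 0, 0, 1 and 7.

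The limit cut through a continuous range of widths. In every list at least 2 domains measured exactly 10.0 kb, such as the peaks near Cdc40 and Agps in the Ezh2m+/p+ maternal list with folds over input of 6.95 and 8.96, and the widest peaks left out measured 9.8 kb in that list (folds 9.27 and 8.88). In the Ezh2m+/p+ paternal list examples of peaks at the limit lay near Mogat1 (fold 17.8) and in Cep350 (fold 506), and examples left out lay in Prkce (26.6) and near Rps6ka1 (21.1), at 9.8 kb each. A gene named as near is the nearest one in the authors' annotation, at whatever distance. In the Ezh2m-/p+ maternal list 2 intergenic domains of 10.0 kb (16.8 and 18.5) were nearest to Mir3090, at 268093 and 448493 bp. They stood beside a peak of 9.8 kb near Spata7 (7.74). In the Ezh2m-/p+ paternal list domains such as those of 10.0 kb at Cep350 (13.1) and Tor1aip2 (16.5) stood beside a peak of 9.8 kb near Cldn34c4 (38.1).

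The widest Ezh2m-/p+ paternal domain lay at chr4:138688201-138790199 (mm10, the build of the lists) and was 102 kb wide, with a fold over input of 19. It contained the start sites of Ubxn10 and of Pla2g2c, Pla2g2f and Pla2g2d, which encode secreted phospholipases A2, enzymes that release fatty acids from membrane lipids. In the Ezh2m+/p+ paternal list 10 peaks of 1.4 to 21.8 kb lay at the same place, with folds between 10.2 and 144, and together covered 85.7% of the domain. Of the 10, 3 were domains themselves, with widths of 19.2, 21.8 and 17.2 kb. The region was thus listed in both genotypes, as 1 peak in the Ezh2m-/p+ and as a row of peaks in the Ezh2m+/p+ zygotes. Neither maternal list had a peak within 100 kb of its centre.

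The next widest Ezh2m-/p+ domain, chr14:54538201-54638399, was 100.2 kb wide with a fold of 15.3. It overlapped 6 protein-coding genes, among them Haus4, a subunit of the augmin complex of the spindle, the proteasome subunit genes Psmb5 and Psmb11, and the cadherin gene Cdh24. The Ezh2m+/p+ paternal list had 6 peaks there of 5.6 to 27.4 kb (folds 9.91 to 54.9), which covered 95.4% of it. Of these, 4 were domains, and again no maternal peak of either genotype lay within 100 kb of the centre.

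**Figure D1:**
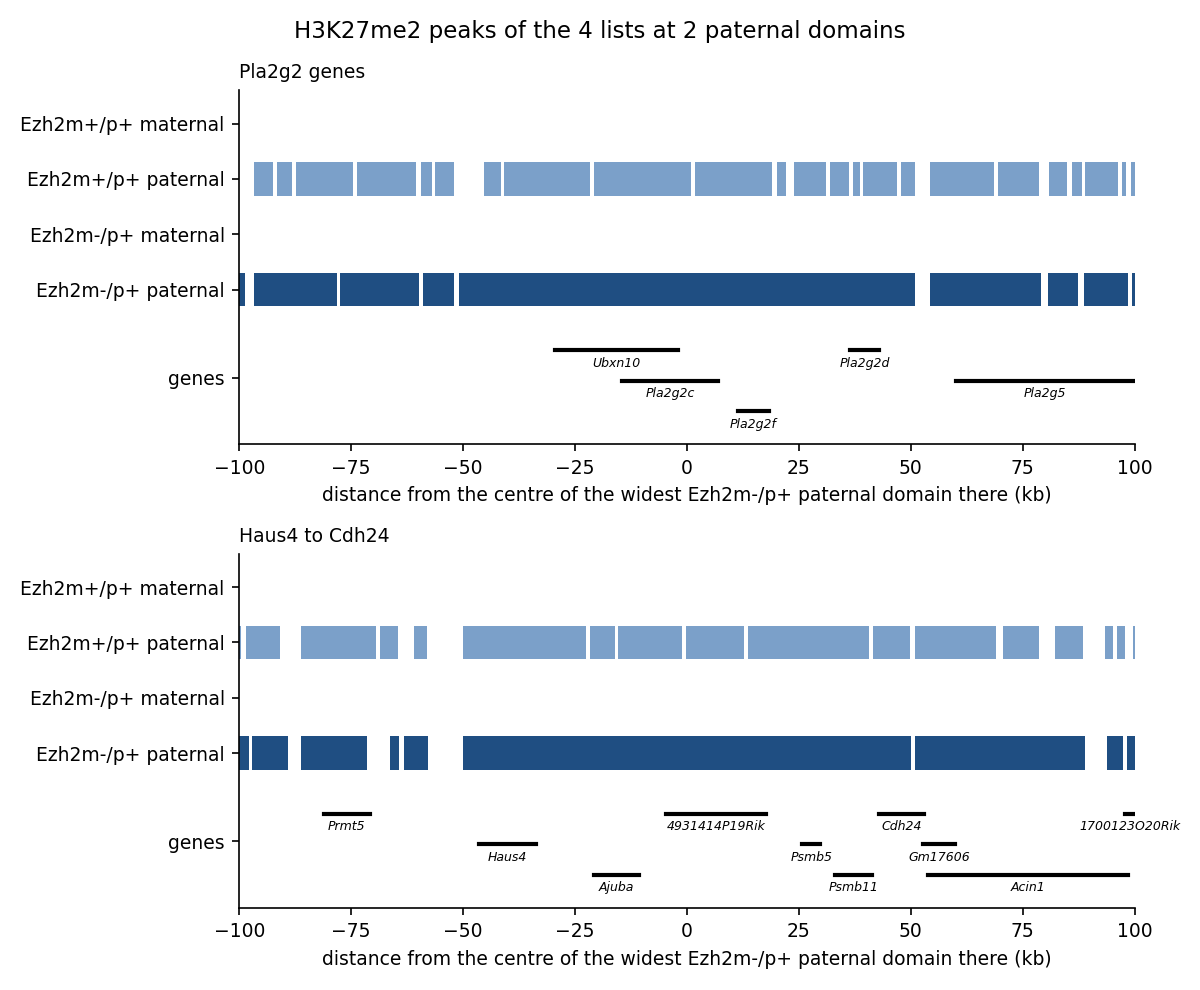
Peaks of the 4 lists within 100 kb of the centre of the widest (top) and the second widest (bottom) Ezh2m-/p+ paternal domain, with distance from the centre in kb on the horizontal axis, a row of boxes for each list and protein-coding genes as black lines. The single Ezh2m-/p+ domains of 102 and 100.2 kb lie over 10 and 6 Ezh2m+/p+ paternal peaks, and both maternal rows are empty.

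The widest Ezh2m+/p+ paternal domain, chr4:140787601-140839999, measured 52.4 kb (fold 12.1) and overlapped Padi3 and Padi1, which encode peptidylarginine deiminases that convert arginine in proteins to citrulline. It lay wholly inside an Ezh2m-/p+ domain of 97.4 kb (fold 9.51), the third widest of that list. Other wide Ezh2m+/p+ paternal domains covered Adam33 and Siglec1, a metalloprotease and a sialic acid receptor of macrophages (31.8 kb, fold 22.4), the zinc transporter Slc30a2 with Extl1 (31.2 kb, fold 18.4) and Arhgef10l (27.8 kb, fold 13.8). In the Ezh2m-/p+ paternal list the positions of these 3 were listed in domains of 28.8, 56.2 and 45.8 kb. Of the 3 partners, 2 were wider, and the domain at Adam33 and Siglec1 was instead split into 2 peaks. The remaining 2 of the 5 widest Ezh2m-/p+ paternal domains were at chr4:140311001-140398399, with no protein-coding gene (87.4 kb, fold 14.8), and over Mul1 and Camk2n1 (61.6 kb, fold 12.9).

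Almost every paternal domain was also occupied in the other genotype. Of the 281 Ezh2m+/p+ paternal domains, 280 overlapped an Ezh2m-/p+ paternal peak by at least 1 bp (99.6%, 95% Wilson interval 98.0% to 99.9%), against 66.1% of all Ezh2m+/p+ paternal peaks. All 695 Ezh2m-/p+ paternal domains overlapped an Ezh2m+/p+ paternal peak (100%, 99.5% to 100%), against 45.7% of all Ezh2m-/p+ paternal peaks. The intervals cover counting error only, and wider peaks meet others more easily, so covered sequence was also compared. Ezh2m-/p+ peaks covered 94.2% of the sequence in Ezh2m+/p+ domains and 63.2% of that in the narrower peaks of the same list. Ezh2m+/p+ peaks covered 72.8% of the sequence in Ezh2m-/p+ domains and 35.9% of that in narrower peaks.

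Narrower peaks close to a domain lay between these values. Ezh2m-/p+ peaks covered 86.0% of the sequence in the 1847 narrower Ezh2m+/p+ paternal peaks within 50 kb of a domain and 58.8% in the 15735 farther away. Ezh2m+/p+ peaks covered 55.1% in the 3579 narrower Ezh2m-/p+ peaks within 50 kb of a domain and 29.8% in the 18549 farther away. The overlap between genotypes was thus higher in the neighbourhood of the domains as a whole and highest in the domains. The lone Ezh2m+/p+ paternal domain without an Ezh2m-/p+ peak lay at chr9:47876001-47886999, in intergenic sequence nearest to Nxpe4 (fold 8.46), and had 12 other Ezh2m+/p+ peaks within 50 kb.

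**Figure D2:**
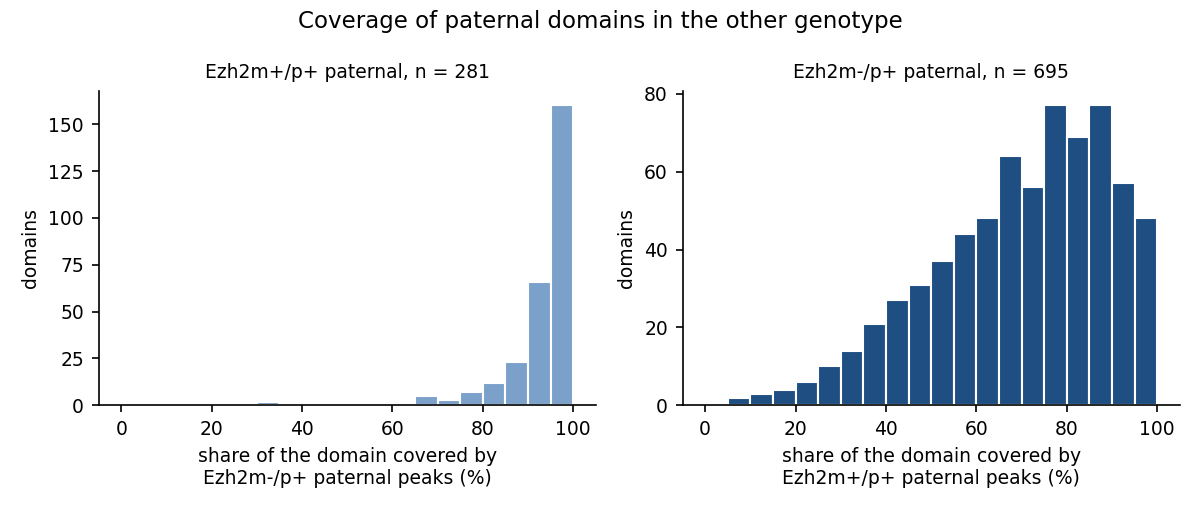
Share of each paternal domain covered by paternal peaks of the other genotype (horizontal axis, %), as numbers of domains in bins of 5 percentage points, for 281 Ezh2m+/p+ domains (left) and 695 Ezh2m-/p+ domains (right). The median share was 98.0% on the left and 73.6% on the right.

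Being listed and being broad differed. A domain of 10 kb or more in the other genotype met 239 of the 281 Ezh2m+/p+ paternal domains (85.1%) but 217 of the 695 Ezh2m-/p+ paternal domains (31.2%). In the other 478 Ezh2m-/p+ domains the widest Ezh2m+/p+ peak had a median width of 5.2 kb, and Ezh2m+/p+ peaks covered a median of 65.3% of each (quartiles 50.9% and 76.8%). The 217 shared domains were wider, with a median of 18 kb against 12.6 kb, and had a higher GC content (median 48.9% against 44.5%). Their fold was similar, at 13.2 and 12.5. They were also more often annotated as promoter by the authors (58.1% against 33.7%). A wider domain meets a partner of 10 kb or more more easily, so the difference in width follows in part from the definition. The part of width in the GC and promoter differences was not tested.

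Many Ezh2m-/p+ domains overlapped several Ezh2m+/p+ peaks. Of the 695, 573 overlapped 2 or more Ezh2m+/p+ paternal peaks, 336 overlapped 3 or more and 122 overlapped a single peak. In the opposite direction 111 of the 281 Ezh2m+/p+ domains overlapped 2 or more Ezh2m-/p+ peaks, 24 overlapped 3 or more and 169 a single one. A domain chosen for its width in one list can meet several peaks of the other for that reason alone, so these counts are a description in both directions. A gap inside a domain is bounded by the domain's width, so the gaps between the Ezh2m+/p+ peaks inside Ezh2m-/p+ domains are given as a description only. Their median was 1201 bp over 1117 gaps and 72.3% were at most 2 kb. Of these 1117 gaps, 341 (30.5%) had 801 bp, the smallest distance between peaks in any of the lists.

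The 139 gaps between Ezh2m-/p+ peaks inside Ezh2m+/p+ domains, bounded in the same way, had a median of 801 bp, and 90.6% were at most 2 kb. The peak caller joins enriched windows of 200 bp that lie close together.

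The widths of overlapping paternal peaks were set side by side. For each Ezh2m+/p+ paternal domain the Ezh2m-/p+ peak of largest overlap was wider in 184 of 280 pairs, equal in 7 and narrower in 89, with a median width ratio of 1.30 (quartiles 0.864 and 1.97). Pairs that started from Ezh2m-/p+ domains had a median ratio, again Ezh2m-/p+ over Ezh2m+/p+, of 2.22 (1.53 and 3.4), and the Ezh2m-/p+ domain was the wider in 648 of 695. Choosing the domains by width in one list pulls the ratio down in the former set and up in the latter. Of the 17582 Ezh2m+/p+ paternal peaks under the 10 kb limit, 10089 overlapped an Ezh2m-/p+ paternal peak under that limit, and with the partner of largest overlap the median ratio was 1.33 (1 and 2.17). These pairs also start from one list, are limited in width on both sides and can count an Ezh2m-/p+ peak more than once, so their ratio is a description and not an unselected reference. The widths of the 280 matched pairs had a Spearman's rank correlation of 0.39 across pairs, which share their libraries, given as a description.

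**Figure D3:**
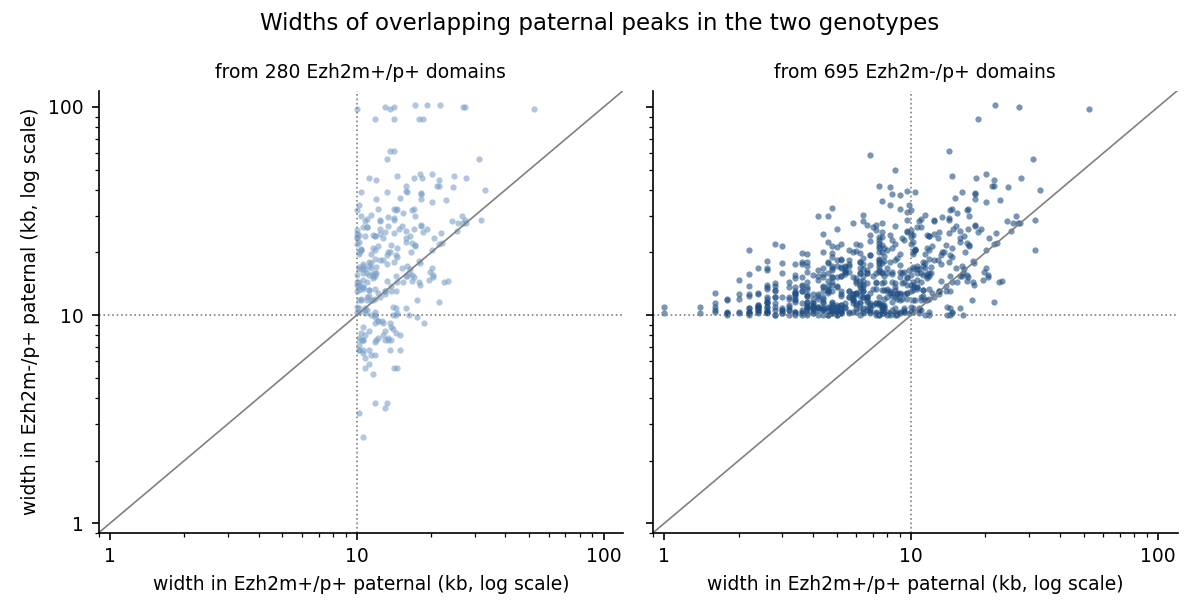
Width of overlapping paternal peaks in Ezh2m+/p+ (horizontal) and Ezh2m-/p+ (vertical) zygotes in kb on log axes, 1 point per domain with its largest-overlap partner, for 280 Ezh2m+/p+ domains (left) and 695 Ezh2m-/p+ domains (right). The solid line marks equal widths and dotted lines mark 10 kb. Most points lie above the line, 184 on the left and 648 on the right.

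Merging the domains of all 4 lists where they overlapped gave 749 loci. Of these, 200 held a paternal domain in both genotypes, 478 in Ezh2m-/p+ only and 42 in Ezh2m+/p+ only. The 11 and 18 maternal domains were each a locus of their own, and 0 loci held a maternal and a paternal domain. The 200 shared paternal loci spanned 5215 kb with a median of 21.6 kb.

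The 5 shared loci with most domain sequence were all on chromosomes 4 and 14. That of Haus4, Psmb5 and Psmb11 had 81.6 kb of Ezh2m+/p+ and 100.2 kb of Ezh2m-/p+ domains. Those of Padi3 and Padi1 (76.0 and 97.4 kb), of the Pla2g2 genes (58.2 and 102 kb) and the locus without a protein-coding gene described above (62.4 and 87.4 kb) followed. The locus of Rps6ka1, a kinase of ribosomal protein S6, chr4:133844601-133917399, had 41.4 and 70.8 kb in 3 domains of each genotype. In each of the 5 the domain sequence was longer in the Ezh2m-/p+ list. Paternal peaks of any width covered 85.7% to 95.4% of these loci in the Ezh2m+/p+ list and 97.2% to 100% in the other, a much smaller difference than in domain sequence.

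No domain overlapped a peak of the opposite parental genome, in the same or in the other genotype. For the 11 Ezh2m+/p+ maternal domains the count of 0 allows a share of up to 27.3%, and 0.418% of all peaks of that list overlapped an Ezh2m+/p+ paternal peak and 0.592% an Ezh2m-/p+ paternal peak. For the 18 Ezh2m-/p+ maternal domains it allows up to 16.7%, beside 0.302% and 0.416% of all peaks. For the 281 Ezh2m+/p+ paternal domains it allows up to 1.07%, beside 0.14% of all peaks that overlapped an Ezh2m+/p+ and 0.168% that overlapped an Ezh2m-/p+ maternal peak. For the 695 Ezh2m-/p+ paternal domains it allows up to 0.432%, beside 0.149% and 0.18%. The shares over all peaks were thus under the limits everywhere, and the absence of overlap is not particular to domains.

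Distance to the opposite genome's peaks did differ. The nearest peak of the opposite parental genome, of either genotype, was a median of 583 kb from Ezh2m+/p+ paternal domains and 636 kb from Ezh2m-/p+ paternal domains, against 245 and 216 kb for narrower peaks of the same lists. No such peak lay within 100 kb of 86.8% and 87.1% of the paternal domains, and of 67.3% and 65.2% of the narrower peaks. Narrower paternal peaks within 50 kb of a domain had shares of 88.4% and 88.8%, close to the domains. The 100 kb on each side of such a neighbour largely coincide with those of the domain, so similar shares follow from the definition. Some paternal domains did have a maternal peak close by. The closest pair was an Ezh2m-/p+ paternal domain at chr5:43865201-43876599 and an Ezh2m-/p+ maternal peak of 2.4 kb that ended 1 bp short of it, and 11 of the 695 domains had such a peak within 10 kb.

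Paternal domains were concentrated on chromosomes 1, 4 and 14. In Ezh2m+/p+ zygotes chromosome 4 held 111, chromosome 1 held 71 and chromosome 14 held 34 of the 281 domains, or 76.9% on chromosomes that make up 18.1% of the genome and held 31.1% of all peaks of the list. In Ezh2m-/p+ zygotes chromosome 1 held 199, chromosome 4 held 163 and chromosome 14 held 85 of 695, or 64.3%, with 25.8% of all peaks. Chromosome 10 held 0 paternal domains in both genotypes, and chromosome X held 3, all of them Ezh2m-/p+ domains. The same 3 chromosomes had the highest paternal read coverage, at 4.03%, 3.47% and 3.03% for chromosomes 4, 1 and 14 in Ezh2m+/p+ zygotes against 1.25% for chromosome 10. Across 20 chromosomes Spearman's rank correlation between domains per Mb and coverage was 0.83 for Ezh2m+/p+ and 0.89 for Ezh2m-/p+ paternal domains. Coverage comes from the same reads as the peaks, and the part of coverage in the distribution was not tested.

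The maternal domains were too few to compare their placement between the genotypes. In the Ezh2m+/p+ list of 11, chromosome 2 held 5, chromosome 11 held 2 and chromosome 14 held 0. The numbers on these chromosomes among the 18 Ezh2m-/p+ maternal domains were 2, 2 and 5. The corresponding rank correlations were 0.50 and 0.12, with 14 and 11 of the 20 chromosomes without a domain.

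**Figure D4:**
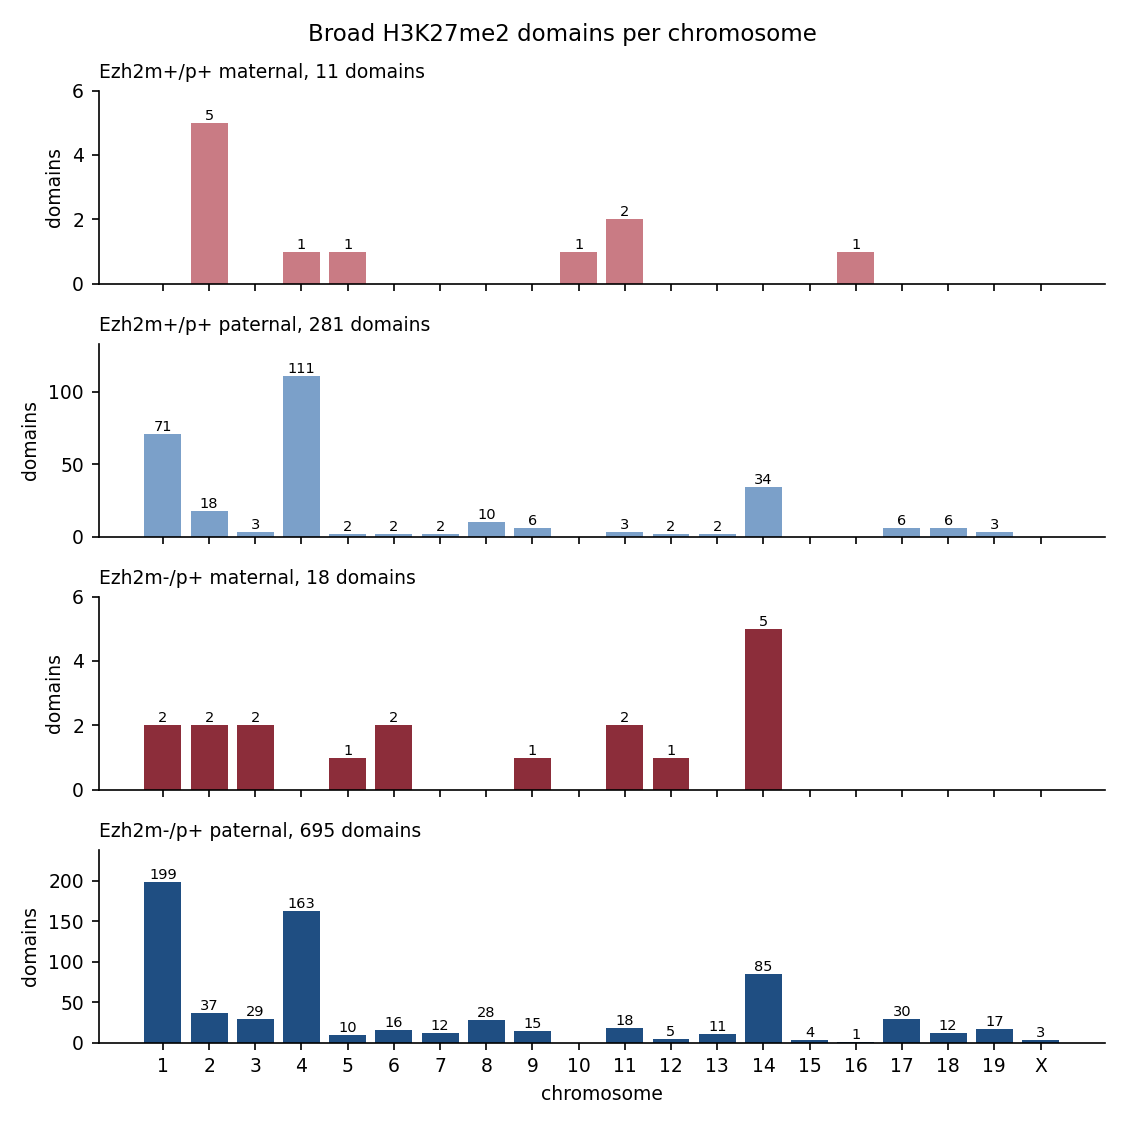
Number of broad H3K27me2 domains (vertical axis, a scale for each panel) on each chromosome (horizontal axis) in the 4 lists, with the number written over each bar. Chromosomes 1, 4 and 14 stand out in both paternal panels, with 71, 111 and 34 Ezh2m+/p+ domains and 199, 163 and 85 Ezh2m-/p+ domains.

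Within chromosomes the paternal domains formed dense groups. Domains less than 1 Mb apart were joined into clusters, which gave 44 clusters in the Ezh2m+/p+ and 94 in the Ezh2m-/p+ paternal list. In Ezh2m+/p+ zygotes 6 clusters of 10 or more domains held 196 of the 281 domains (69.8%), and in Ezh2m-/p+ zygotes 16 such clusters held 523 of 695 (75.3%). The largest Ezh2m+/p+ cluster, chr4:136025001-140929199, held 82 domains and 514 peaks in 4.90 Mb, 58.8% of which was listed as peak. The same region was an Ezh2m-/p+ cluster of 92 domains and 438 peaks in 4.91 Mb, with 70.4% listed as peak. A region of 7.18 Mb on chromosome 1, chr1:155699801-162880799, held 106 Ezh2m-/p+ domains, the most in any cluster, and the matching Ezh2m+/p+ cluster held 40. The number of peaks was lower in the Ezh2m-/p+ than in the Ezh2m+/p+ list in both regions, 438 against 514 and 770 against 883, while the share of the region listed as peak was higher.

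Maternal peaks were fewer per Mb in each of the paternal clusters of 10 or more domains than in the genome, which had 5.83 per Mb. The 4.91 Mb on chromosome 4 held 2 maternal peaks of the 2 genotypes together, or 0.407 per Mb, and the 7.18 Mb on chromosome 1 also held 2, or 0.279 per Mb. A cluster on chromosome 14 with 31 Ezh2m-/p+ domains in 1.29 Mb and 78.1% of its length listed as paternal peak held 0. The highest values were 2.13 per Mb for an Ezh2m+/p+ cluster of 14 domains on chromosome 2, and 4.81, 3.22 and 2.65 per Mb for Ezh2m-/p+ clusters of 15 and 14 domains on chromosome 1 and of 22 on chromosome 8. Some smaller paternal clusters were above the genome, up to 11.9 per Mb for 3 Ezh2m-/p+ domains on chromosome 15. By contrast the maternal domains formed 9 and 13 clusters of at most 2 and 3 domains. Paternal domains had a median of 12 (Ezh2m+/p+) and 11 (Ezh2m-/p+) other peaks of the same list within 50 kb, against 4 and 4 for narrower peaks. Narrower paternal peaks within 50 kb of a domain had the same medians as the domains, 12 and 11. Maternal domains had 1 and 2 against 0 and 1. The caller joins neighbouring enriched windows, so width and local density are related by construction.

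The widest maternal domains and those of largest fold follow. In the Ezh2m+/p+ list the widest was downstream of Csf2, which encodes a growth factor of granulocytes and macrophages (chr11:54225201-54245999, 20.8 kb, fold 7.29). A domain of 15.6 kb in Acsl6, an acyl-CoA synthetase gene, lay on the same chromosome within 1 Mb of it (fold 5.25). A pair of intergenic domains of 17.4 and 17.2 kb on chromosome 2 was nearest to Mir3090, at 300293 and 110693 bp (folds 5.94 and 6.94). A domain of 15 kb was nearest to Olfm1 (fold 5.34). The largest folds were 16.4 in Sh3tc1 (10.2 kb), 10.3 near Syt13 (12.8 kb) and 8.96 near Agps (10.0 kb). All 11 folds lay between 5.25 and 16.4, with a median of 6.94, where the authors' limit was 5.

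In the Ezh2m-/p+ maternal list the widest domains were a neighbouring pair in Pebp4 of 17.6 and 16.4 kb (folds 35.4 and 15.7), only 801 bp apart. Domains of 16.0 kb in Frmpd2 (fold 5.42), 13.6 kb near 1110036E04Rik (fold 6.26) and 13.2 kb in Rasgef1a, an activator of Ras (fold 5.39), followed. The largest fold of any maternal domain was 152, in Piwil2, which encodes a PIWI protein of the piRNA pathway (chr14:70382801-70394199, 11.4 kb). An intergenic domain of 10.0 kb, 448493 bp from its nearest gene Mir3090, had a fold of 18.5. The other folds were lower, with a median of 6.07 over the 18.

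Few maternal peaks of any width were shared between the genotypes, and domains were no exception. Of the 11 Ezh2m+/p+ maternal domains, 3 overlapped an Ezh2m-/p+ maternal peak (27.3%, 95% Wilson interval 9.75% to 56.6%), against 9.47% of all peaks of that list. Of the 18 Ezh2m-/p+ maternal domains, 3 overlapped an Ezh2m+/p+ maternal peak (16.7%, 5.84% to 39.2%), against 5.78% of all peaks. With so few domains the intervals reach from about the background to far above it. The shared sequence was small, at 6.08% and 7.98% of the domain sequence against 6.01% and 4.50% in narrower peaks. No maternal position was a domain in both genotypes.

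Of the 6 overlaps, 3 covered most of the domain. An Ezh2m-/p+ maternal domain of 10.0 kb, 268093 bp from Mir3090, was covered to 96.0% by an Ezh2m+/p+ peak of 9.8 kb. That peak was just under the limit, and the folds were 16.8 and 5.03. An Ezh2m-/p+ domain of 11.8 kb near Igfbp3 was covered to 61.0% (folds 5.66 and 6.12), and an Ezh2m+/p+ domain in Dgkg, a diacylglycerol kinase gene, to 58.8% (folds 5.53 and 5.26). The other 3, in Cdc40, 110693 bp from Mir3090 and in Piwil2, were covered to 20%, 6.97% and 7.01%. The stretch of chromosome 2 whose nearest annotated gene was Mir3090 had 2 domains in each maternal list, and none of the 4 overlapped another. They were spread over 0.207 Mb for Ezh2m+/p+ and 0.190 Mb for Ezh2m-/p+ zygotes.

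The fold over input of domains was moderate. The median was 6.94 in the Ezh2m+/p+ maternal, 14.4 in the Ezh2m+/p+ paternal, 6.07 in the Ezh2m-/p+ maternal and 12.9 in the Ezh2m-/p+ paternal list, against 7.37, 36.1, 23.7 and 15.8 in the narrower peaks. Folds over 50 were found for 9 of the 281 Ezh2m+/p+ paternal domains (3.20%) and 12 of the 695 Ezh2m-/p+ paternal domains (1.73%), and for 32% and 37.3% of the narrower peaks. High folds were hence a feature of narrow peaks in the paternal lists. The fold of narrower peaks took few values: 98.2% of Ezh2m+/p+ and 97.2% of Ezh2m-/p+ narrower paternal peaks shared their fold with at least 4 other peaks, against 31.3% and 29.1% of the domains.

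The paternal domains of highest fold were set beside the other genotype. They were chosen by their fold in one list, so a lower fold in the other can follow from that choice. The Ezh2m+/p+ paternal domain of largest fold, 506, lay in Cep350, a centrosomal protein gene (chr1:155902401-155912399, 10.0 kb), and was covered to 100% by an Ezh2m-/p+ domain of 13 kb with a fold of 6.79. That in Spata17, with a fold of 433, was covered to 96.0% by an Ezh2m-/p+ domain of 22.0 kb with a fold of 12.1. The commonest fold of this list was 36.1, given to 3350 peaks, and these 2 folds were whole multiples of it, 14 and 12 times that value. The third, 82.8, in 4930402H24Rik, met 2 Ezh2m-/p+ peaks. The larger of their folds was 252, but the peak of largest overlap had a fold of 31.3. In the Ezh2m-/p+ paternal list the largest fold was 599 near Suco, 9.5 times the commonest fold of that list, 63.0. There 2 Ezh2m+/p+ peaks had a highest fold of 156. Next came 148 in the tyrosine kinase gene Abl2, where 4 peaks reached 132, and 144 near Fh1, where 1 peak had 60.2. Over the 280 matched pairs the median ratio of the folds, Ezh2m-/p+ over Ezh2m+/p+, was 0.910 (quartiles 0.636 and 1.34), and Spearman's rank correlation across pairs was 0.17, a description of pairs that share libraries.

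The domains were richer in G and C than the genome. The median GC content was 46.4% in Ezh2m+/p+ maternal, 49.2% in Ezh2m+/p+ paternal, 46.5% in Ezh2m-/p+ maternal and 45.6% in Ezh2m-/p+ paternal domains. It was 45.5%, 44.6%, 45.6% and 43.9% in the narrower peaks of these lists and 41.2% in 255946 windows of 10 kb of the genome. All 4 lists were thus above the genome, and the gap between domains and narrower peaks was widest in the Ezh2m+/p+ paternal list. Narrower Ezh2m+/p+ paternal peaks within 50 kb of a domain had a median of 46.7% and those farther away 44.4%. In the Ezh2m-/p+ paternal list these medians were closer, at 44.3% and 43.8%. GC content was highest in the widest paternal domains, with 51.2% for 34 Ezh2m+/p+ domains and 48.6% for 154 Ezh2m-/p+ domains of 20 kb or more.

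The number of CpG dinucleotides relative to that expected from the base composition followed the same order in the paternal lists. The Ezh2m+/p+ paternal domains had a median of 0.223 and the Ezh2m-/p+ paternal domains one of 0.213, against 0.174 and 0.170 in narrower peaks and 0.170 in genome windows. In the maternal lists it was 0.152 and 0.174 in domains and 0.179 in the narrower peaks of both. The median share of repeat-masked bases was 20.4%, 20.6%, 16.8% and 22.7% in domains, in the order used above, against 29.2% in genome windows. The narrower peaks had 20.3%, 20.9%, 19.3% and 21.4%, so that the low repeat share was common to peaks of all widths. Reads from repeats were less likely to be kept, since only alignments of high mapping quality were used, and the part of this filter was not tested.

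**Figure D5:**
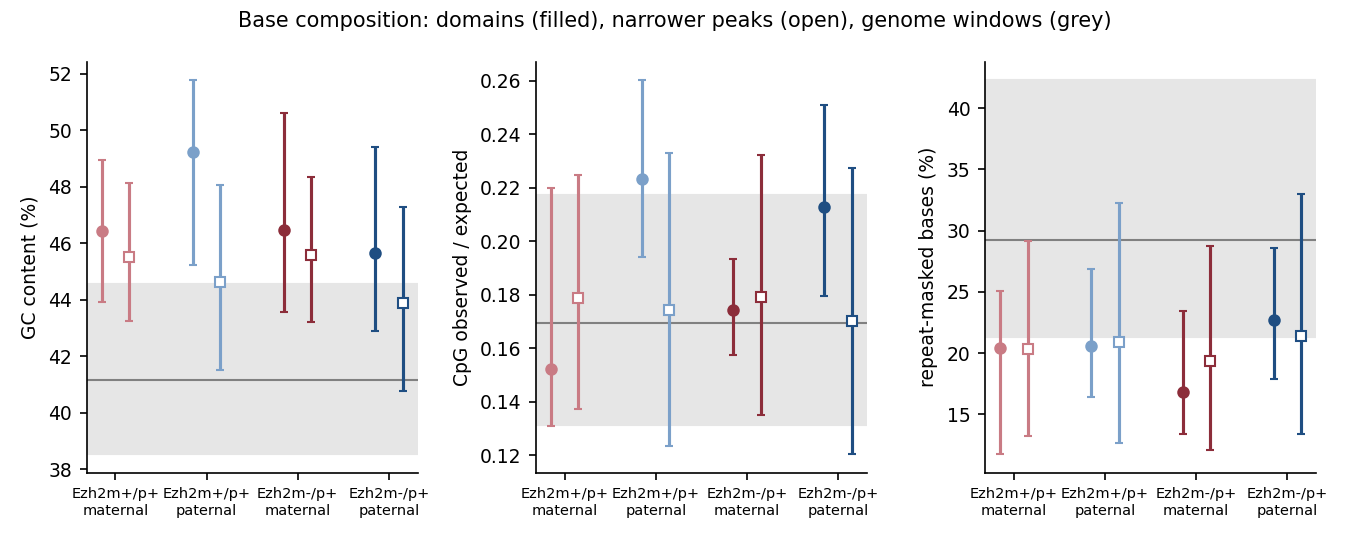
GC content (left, %), observed over expected CpG (middle) and repeat-masked bases (right, %) of domains (filled circles) and narrower peaks (open squares) of the 4 lists, as medians with quartiles. The grey line and band are the median and quartiles of 10 kb windows of the genome. All GC medians lie above the grey line at 41.2%, and paternal domains lie above narrower paternal peaks in GC content and CpG.

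Paternal domains overlapped genes more often than genome windows did. A protein-coding gene of GENCODE was overlapped by 72.6% of Ezh2m+/p+ paternal domains and 68.3% of Ezh2m-/p+ paternal domains, against 46.1% of 10 kb windows. A start site lay inside 23.1% and 23.2% of them, against 7.61% of windows, which are somewhat shorter than most domains. Of the maternal domains, 4 of 11 (36.4%) and 10 of 18 (55.6%) overlapped a gene, on either side of the share of windows. A start site lay in 0 and 1 of them (0% and 5.56%), too few domains to set apart from the windows. In the authors' annotation 48.8% of Ezh2m+/p+ and 41.3% of Ezh2m-/p+ paternal domains were placed at promoters, against 16.8% and 16.2% of narrower peaks, and 17.1% and 19.3% were intergenic, against 40.6% and 41.4%. A wider peak reaches a promoter more easily, and the part of width in these shares was not tested.

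Paternal domains overlapped 173 of the 21755 protein-coding genes in Ezh2m+/p+ zygotes (0.795%) and 387 in Ezh2m-/p+ zygotes (1.78%), and maternal domains 4 (0.0184%) and 9 (0.0414%). Both paternal lists had 159 of these genes, which are 91.9% of those in Ezh2m+/p+ and 41.1% of those in Ezh2m-/p+ domains. Of the 228 genes in Ezh2m-/p+ domains only, 221 had an Ezh2m+/p+ paternal peak of some width in their body, and all 14 genes in Ezh2m+/p+ domains only had an Ezh2m-/p+ peak. The maternal lists shared 0 genes. Genes lying wholly inside domains numbered 24 and 74 in the paternal lists and 0 in the maternal lists, and a single Ezh2m-/p+ domain overlapped up to 6 genes.

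Among the longest genes wholly inside Ezh2m+/p+ paternal domains were Siglec1 (17.5 kb), Haus4 (12.8 kb), Slc30a2 (11.3 kb) and Nbl1, a BMP antagonist (10.7 kb). In the Ezh2m-/p+ paternal list Haus4, Slc30a2 and Nbl1 were also wholly inside domains and Siglec1 was inside to 95.4%. Among the longest in the Ezh2m-/p+ list were Padi1 (32.8 kb), Minos1, an organiser of mitochondrial cristae (29.3 kb), Gm572 (28.3 kb) and Ubxn10 (27.3 kb). In the Ezh2m+/p+ list the share of these inside domains was 97.6% for Padi1, 0% for Minos1, 36.8% for Gm572 and 97.1% for Ubxn10, and peaks of any width covered 62.5% of Minos1 and 63.6% of Gm572. Among maternal domains the largest shares of a gene were 25.6% for Acsl6, 23.8% for Sh3tc1, 19.3% for Cdc40 and 5.40% for Dgkg in Ezh2m+/p+ zygotes, and 26.3% for Frmpd2, 20% for Piwil2, 16.5% for Rasgef1a, 10.6% for Pebp4 and 5.91% for Bcl2 in Ezh2m-/p+ zygotes. Paternal peaks covered 0% of all of these 9 genes.

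Gene groups were counted against the 0.795% and 1.78% of all genes. Of 20 genes of the phospholipase A2 family, 3 overlapped an Ezh2m+/p+ paternal domain and 4 an Ezh2m-/p+ paternal domain. Pla2g2f lay wholly inside domains in both, Pla2g2c to 96.2% and 100%, Pla2g2d to 0% and 100%, and Pla2g5 to 13.3% and 60.8%. These genes are neighbours, so the count reflects 1 region. The same holds for the 5 peptidylarginine deiminase genes, which were added after their values were seen and all overlapped paternal domains in both genotypes. Padi1 and Padi3 are given above, and the shares in Ezh2m+/p+ and Ezh2m-/p+ domains were 91.9% and 64.7% for Padi6, a gene of the oocyte's maternal store, 60.5% and 61.2% for Padi4, and 39.4% and 70.2% for Padi2. Of 94 potassium channel genes 3 and 5 were overlapped, led by the adjacent inward rectifier genes Kcnj9 (100% in both) and Kcnj10 (78.7% in both), with Kcnh1 in both and Kcnk2 and Kcnk12 in Ezh2m-/p+ only. Of 385 solute carrier genes 6 and 9 were overlapped (1.56% and 2.34%), among them Slc30a2 and Slc22a17 wholly in both and the amino acid transporter gene Slc7a8 to 82.9% and 96.7%.

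Developmental regulators are classical Polycomb targets. Of 164 genes of homeobox, Pax, Sox, Fox, T-box, Gata and related families, 1 was overlapped by Ezh2m+/p+ and 3 by Ezh2m-/p+ paternal domains (0.610% and 1.83%), close to the shares of all genes. They were Lhx4, inside domains to 23.1% and 52.6%, and in Ezh2m-/p+ only Pax7 (39.5%) and Sox10 (82.2%). Peaks of any width covered 63.8% of Pax7 and 69.0% of Sox10 in Ezh2m+/p+ zygotes, so that these genes were listed there without a domain. Of 394 zinc finger genes 1 (Zfp683) and 7 were overlapped, of 1420 olfactory and vomeronasal receptor genes 0 and 3 (Olfr221, Olfr1510 and Olfr736), and of 92 cadherin and protocadherin genes 1 in each (Cdh24, to 21.4% and 92.1%).

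In the remaining groups counts were 0 or 1. Of 61 serpin genes 0 and 1 were overlapped (Serpinc1, the antithrombin gene, to 22.2%), and of 90 genes of interleukins, colony-stimulating factors and their receptors 0 and 1 (Il25, to 100%). No domain of the 4 lists overlapped any of 53 keratin genes, 47 glutamate and GABA receptor genes, 40 canonical imprinted genes or 13 genes of PRC2 subunits, EHMT1 and EHMT2. Of 19 genes imprinted by maternal H3K27me3, 1 was overlapped, Epas1, a hypoxia-inducible factor gene. An Ezh2m-/p+ paternal domain held 14% of it, and paternal peaks of any width covered 71% of it in the same list and 53.4% in the Ezh2m+/p+ list. No maternal domain overlapped a gene of any of the groups, and maternal domains overlapped only 0.0184% and 0.0414% of all genes. With these shares, and paternal ones of 0.795% and 1.78%, a count of 0 does not set a small group apart from all genes.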

How the data were processed

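H3K27me2 chromatin immunoprecipitation followed by sequencing was done on pooled PN5 zygotes, with 1 library and 1 input library for each of the 2 genotypes. Per the submitters' processing notes, reads were trimmed with Trimmomatic (0.38), aligned with Bowtie2 to mm10 (GRCm38), filtered with SAMtools and cleared of duplicates with Picard. Per the study's methods, reads were kept above a mapping quality limit and divided between the parental genomes with SNPsplit, for which a read must hold a base that differs between the strains, and SICER called peaks in windows of 200 bp. The authors deposited 4 peak lists, 1 for each genotype and parental genome, with a fold (a ratio of H3K27me2 to input reads) and an annotation from ChIPSeeker that counts 3 kb around a start site as promoter. They kept peaks of at least 1000 bp with a fold above 5. Peaks were called on single libraries. A further deposited table holds, by chromosome and parental genome, the fraction under reads, without read numbers; these fractions are printed in percent. The study lists read totals for whole libraries, lower for the Ezh2m-/p+ than for the Ezh2m+/p+ H3K27me2 library, but not by parental genome. Only their order is given here, and they enter no calculation. Of the 126 fractions, 42 belong to 2 groups of oocytes and were not used.

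Members and lists were chosen with earlier results of these data known. Domains were peaks of 10 kb or more, counted so that a listed width 1 bp short of a multiple of 200 bp is printed as that multiple. Peaks overlapped if they shared at least 1 bp. Shares have 95% Wilson intervals, and a count of 0 was taken to allow 3, both covering counting error only. Base composition came from GRCm38, genes were the protein-coding genes of GENCODE mouse release 21, and promoters were those of RefSeq. Of 11472 gene identifiers, 11459 had a symbol. Named were the 5 widest domains and the 3 of largest fold in each list, the 5 shared loci of each parental genome with most domain sequence, the longest genes inside domains and the members of the listed gene groups that domains overlapped; other names are marked as added, and some named items are not reported here. With 1 library a genotype no test between genotypes was possible. Alternatives were a limit of 15 kb, a fold over 10, joining across 2 kb, stricter overlap, merging across 10 kb and leaving out chromosome X. The tools were matplotlib (3.10.9), scipy (1.17.1), pandas (2.3.3) and numpy (2.4.6) under Python (3.11.15), and the overlap and cluster code was tested on simulated data.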

Additional observations from a re-analysis of the deposited data

How the results depend on the processing

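No paired analysis was possible because each genotype had 1 library. Of the alternative values for the numbers, shares and loci, 22 moved by over 1.5 times the count or beyond the interval of the share, and they are given here. The others do not measure stability as a whole, since some could not move: the alternatives for the overlap with the opposite parental genome only removed peaks from a count of 0, and leaving out chromosome X changes nothing in a list without a domain on it. The 24 alternative values of base composition moved by less than the spread within the lists.

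Numbers are given in the order Ezh2m+/p+ maternal, Ezh2m+/p+ paternal, Ezh2m-/p+ maternal and Ezh2m-/p+ paternal. A limit of 15 kb left 5, 89, 3 and 301 domains and 317 loci. Joining peaks across gaps of up to 2 kb gave 32, 721, 57 and 1239 domains. A fold over 10 left 2 Ezh2m+/p+ and 5 Ezh2m-/p+ maternal domains. The share of domains overlapped in the same parental genome of the other genotype fell to 0%, 85.1%, 0% and 31.2% where only partners of 10 kb or more counted. With at least 50% of the domain covered it was 9.09% for Ezh2m+/p+ maternal and 83.0% for Ezh2m-/p+ paternal domains. Where only partners with a fold over 10 counted it was 84.7% for Ezh2m+/p+ paternal, 0% for Ezh2m-/p+ maternal and 93.2% for Ezh2m-/p+ paternal domains. With the limit of 15 kb it was 100% for Ezh2m+/p+ paternal and 0% for Ezh2m-/p+ maternal domains. Stricter limits can only lower a count, and stricter partners or overlap can only lower a share. What moved the shares under the limit of 15 kb was not tested.

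The values rest on single libraries of unequal coverage, and genotype and library cannot be told apart. A domain is what the caller joined, and the smallest gap between listed peaks was 801 bp. The part of depth and of the variants available to assign reads was not tested. The study's read totals for whole libraries are lower for the Ezh2m-/p+ library, whereas the coverage fractions are higher.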
